A study of Mus musculus with 12 samples.

Results

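The genes described here are 9 chemokine receptors, namely Ccr1, Ccr2, Ccr7, Cxcr2, Cxcr3, Cxcr4, Cxcr5, Cx3cr1 and the atypical receptor Ackr3, chosen by gene symbol in the 2 count tables of sorted cells that the submitters label glomerular endothelial cells (GEC). All 9 of the 9 were listed among the 17811 genes of the table of dimtdT cells. In the table of brighttdT cells, which lists 17521 genes, 5 of the 9 were present (Ccr2, Ccr7, Cxcr4, Cxcr5 and Ackr3), and Ccr1, Cxcr2, Cxcr3 and Cx3cr1 were absent. Either table or both listed 19564 genes in all.

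The mice were on a C57BL/6 background at 4 months of age. All of them carried the TekCre tdTomato reporter, in which Cre under the Tek promoter switches on the red protein tdTomato, and the WT and AS groups differed in Col4a5, which was intact in wild type (WT) mice and knocked out (Col4a5 -/-) in the Alport syndrome (AS) group. Glomeruli sieved from digested renal cortex were dissociated, and the tdTomato positive cells were sorted into a dim and a bright gate, so that each of 3 WT and 3 AS mice gave a dimtdT and a brighttdT library (12 libraries, 3 in each of the 4 groups). After selection for size and single cells, the gates rest on reporter brightness, so any cell in which Tek-Cre was active at some stage of its life, or whose fluorescence falls within a gate, can be in them.

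Chemokine receptors sit in the membrane of the cell and read gradients of small secreted proteins, the chemokines. The conventional members signal through inhibitory G proteins, phosphoinositide 3-kinase gamma and the Rac activator Dock2, and they steer leukocytes out of the blood and through tissue. In the glomerulus they are best known from the monocytes, neutrophils and lymphocytes that pass through or settle there, whereas Cxcr4 and Ackr3 are also found on endothelial and other resident cells. Ackr3 does not couple to G proteins but binds arrestin, takes up Cxcl12 and removes it, and so shares a ligand with Cxcr4.

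The label of the cells was checked first, because it bears on every value below. Summed over 12 endothelial markers (Pecam1, Cdh5, Kdr, Emcn, Ehd3 and others), the brighttdT libraries held 11476 to 18523 CPM (counts per 1000000, after scaling) and the dimtdT libraries 224 to 1353 CPM. Summed over 8 pan-leukocyte markers (Ptprc, Coro1a, Cd53 and others), the order was the opposite, at 7366 to 12869 CPM in the dimtdT and 77.1 to 182 CPM in the brighttdT libraries. The endothelial label therefore held against the leukocyte markers in the brighttdT libraries. In the dimtdT libraries leukocyte markers exceeded endothelial markers in each of the 6. The brighttdT libraries also held summed podocyte (1033 to 1461 CPM), mesangial and mural (418 to 939 CPM) and proximal tubule markers (42.8 to 1759 CPM). Each of these sums lay below the endothelial sum. In bulk RNA, fewer cells of a type and less RNA per cell cannot be told apart. Total gene counts lay between 11440169 and 15074909 per library. CPM values were scaled within each table, and CPM levels from the dim and the bright table set side by side below are descriptive, while the tests between them used a joint fit.

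The stretch of 250 bases upstream of the transcription start is shown for 3 members that differ in where they were detected. Ccr1 was listed in dimtdT cells only, and Cxcr4 was high in dimtdT cells and still counted in brighttdT cells. Ackr3 had the highest level in brighttdT cells of the 5 members listed there. Sequences are from RefSeq on GRCm38.p6, written 5′ to 3′ on the strand of the gene, with CG dinucleotides in capitals. The windows lie at chr9:123968693-123968942 (minus strand, Ccr1), chr1:128592300-128592549 (minus strand, Cxcr4) and chr1:90203730-90203979 (plus strand, Ackr3).
Ccr1: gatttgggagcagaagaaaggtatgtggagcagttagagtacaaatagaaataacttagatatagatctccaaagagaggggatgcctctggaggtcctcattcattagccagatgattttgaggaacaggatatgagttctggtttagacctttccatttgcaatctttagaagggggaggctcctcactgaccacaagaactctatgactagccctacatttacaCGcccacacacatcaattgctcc
Cxcr4: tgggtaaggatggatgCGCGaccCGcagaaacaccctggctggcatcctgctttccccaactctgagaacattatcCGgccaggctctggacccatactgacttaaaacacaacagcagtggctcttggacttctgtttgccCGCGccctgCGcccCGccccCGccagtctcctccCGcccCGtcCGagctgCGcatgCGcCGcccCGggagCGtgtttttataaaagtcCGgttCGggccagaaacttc
Ackr3: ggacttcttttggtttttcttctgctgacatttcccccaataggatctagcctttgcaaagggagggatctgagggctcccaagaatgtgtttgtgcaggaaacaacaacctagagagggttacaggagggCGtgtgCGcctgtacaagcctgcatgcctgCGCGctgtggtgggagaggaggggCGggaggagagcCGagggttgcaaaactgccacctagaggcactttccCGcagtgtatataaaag
The Ccr1 window held 1 CG, the Ackr3 window 7 and the Cxcr4 window 19, against a median of 6 over 32851 upstream windows of the same length. Windows were found for 7 of the 9 members. Those of Ccr2 and Cxcr2 held 1 CG each, that of Cxcr3 held 3 and that of Cx3cr1 held 4, so the window of Cxcr4 was the richest in CG among the 7. The letters TATAAA, searched on both strands, occurred 2 times upstream of Cxcr4 (overlapping, on opposite strands) and 1 time upstream of Ackr3, and 12.4% of all windows hold them. The other 5 windows did not hold these letters.

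All 9 members are annotated as protein coding (Gencode M21, GRCm38). Ccr1 (ENSMUSG00000025804) and Ccr2 (ENSMUSG00000049103) lie near each other on chromosome 9, Cxcr5 and Cx3cr1 lie elsewhere on chromosome 9, Cxcr2, Cxcr4 and Ackr3 (ENSMUSG00000044337) on chromosome 1, Ccr7 on chromosome 11 and Cxcr3 on the X chromosome. The annotated span of Cxcr5 overlaps Bcl9l on the other strand, and that of Cx3cr1 runs over 9 other genes, so the counts of these 2 receptors are less certain than those of the remaining members, which overlap no other gene.

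Expressed per kilobase of exon sequence, which allows genes to be compared, Ccr7 was the highest receptor in dimtdT cells of both genotypes. In WT dimtdT cells it stood at 128 ± 11.7 CPM per kb (SD, n = 3), apart from the next gene. Ccr2 (38.8 ± 14.9), Cxcr4 (30.1 ± 6.63), Cxcr5 (27.5 ± 8.98), Cxcr2 (19.8 ± 13.7) and Ccr1 (13.1 ± 5.78 CPM per kb) followed with overlapping ranges between neighbours. Ackr3 (5.57 ± 2.01), Cxcr3 (5.08 ± 2.45) and Cx3cr1 (3.96 ± 0.436 CPM per kb) closed the order, again overlapping. In AS dimtdT cells the order was Ccr7 (166 ± 30.6), Ccr2 (123 ± 30.8), Cxcr5 (52.6 ± 13.3), Cxcr4 (47.9 ± 5.02), Ccr1 (13.2 ± 6.67), Cxcr2 (13.1 ± 6.63), Cxcr3 (10.2 ± 1.81), Cx3cr1 (8.62 ± 2.35) and Ackr3 (0.479 ± 0.467 CPM per kb). Ccr7 and Ccr2 overlapped, and gaps without overlap lay between Ccr2 and Cxcr5, between Cxcr4 and Ccr1, and between Cx3cr1 and Ackr3. With the deposited gene lengths in place of merged exons, the order in WT dimtdT cells would move for 4 members, with Cxcr5 at rank 6 instead of 4, Ccr1 at 4 instead of 6, Cxcr4 at 2 instead of 3 and Ccr2 at 3 instead of 2. In AS dimtdT cells Cxcr5 and Cxcr4 would exchange places, as would Cxcr2 and Cxcr3, and in WT brighttdT cells so would Cxcr5 and Ccr2.

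The brighttdT order was different. Ackr3 came first in both genotypes, with 3.62 ± 0.974 CPM per kb in WT and 7.95 ± 1.26 CPM per kb in AS. Cxcr4 came next, at 2.37 ± 1.45 and 2.54 ± 0.349 CPM per kb, overlapping Ackr3 in WT but not in AS. Ccr7 (0.592 ± 0.120 and 1.02 ± 0.440), Ccr2 (0.151 ± 0.0842 and 0.488 ± 0.0975) and Cxcr5 (0.156 ± 0.182 and 0.399 ± 0.0195 CPM per kb, WT and AS) were the lowest, and the ranges of Ccr2 and Cxcr5 overlapped in both genotypes.

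The first comparison asked how the receptors differed between AS and WT mice in dimtdT cells. Ccr2, the receptor of inflammatory monocytes for Ccl2 and Ccl7, rose 3.18-fold, Ackr3 fell 11.9-fold, and the other 7 members did not pass the test. By DESeq2, Cx3cr1 and Cxcr5 passed as well (adjusted p = 0.00684 and 0.0419). The 2 of 9 members called by edgeR stand beside 8.63% of all 14637 genes tested that passed (2.21% higher and 6.42% lower in AS), and the median log2 fold change was 0.67 over the 9 members and -0.02 over all genes.

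Among the myeloid receptors, Ccr2 counted 2423, 2300 and 4540 reads across the WT and 8672, 12204 and 11729 across the AS dimtdT libraries. Every AS library was above every WT library. The log2 fold change was 1.67 (SE 0.30, 95% confidence interval 0.97 to 2.37, adjusted p = 0.0230 by edgeR's quasi-likelihood test). The call was lost when WT replicate 2 (adjusted p = 0.0568) or AS replicate 1 (0.113), 2 (0.0674) or 3 (0.113) was left out of the edgeR fit, with log2 fold changes of 1.45 to 2.03 over all 6 omissions. It was also lost with the pan-leukocyte markers as a covariate (log2 fold change 0.96, edgeR, adjusted p = 0.281) and with the proximal tubule markers as one (1.81, adjusted p = 0.798). Monocyte and macrophage markers moved in the same direction. Of 7 such markers, 4 were higher in AS, Csf1r, Adgre1 and Lyz2 among them, and the summed level was 2884 to 5079 CPM in WT and 6775 to 9302 CPM in AS. Counted against these markers in the same library, Ccr2 stood at 65.9 per 1000 marker counts in WT and 110 in AS (arithmetic means), without overlap. The ratio of the geometric means, the measure used for all such ratios here and below, was 1.63 (exact permutation test, two-sided, p = 0.1, the smallest that 3 against 3 allows). The part of these cells in the Ccr2 difference was not tested further.

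Cx3cr1, the fractalkine receptor of patrolling monocytes and macrophages, had 225, 206 and 194 counts per WT library against 418, 616 and 483 per AS library. The groups did not overlap, yet the log2 fold change of 1.12 (SE 0.29) missed the threshold (edgeR, adjusted p = 0.0526). Ccr1, which binds Ccl3 and Ccl5 on monocytes and neutrophils, gave 226, 457 and 633 counts per WT library against 710, 192 and 609 per AS library. Its groups overlapped fully (log2 fold change 0.01, 95% confidence interval -1.10 to 1.12, adjusted p = 0.992). Cxcr2, the neutrophil receptor for Cxcl1 and Cxcl2, had 287, 576 and 1281 counts per WT library against 847, 226 and 548 per AS library. The AS value was on average lower, with a log2 fold change of -0.59 (95% confidence interval -1.87 to 0.68, edgeR, adjusted p = 0.549). The high Cxcr2 count came from WT replicate 3, whose library also had the highest summed neutrophil markers (2492 CPM, against 543 to 949 CPM in the other 5 libraries), and without that library the log2 fold change was 0.11. Counted against neutrophil markers, Cxcr2 stood at 54.9 per 1000 in WT and 51.8 in AS, a ratio of 0.940 with overlapping groups.

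The receptors of lymphocyte and dendritic cell homing were next. Ccr7, which leads T cells and dendritic cells towards lymph nodes, had 2622, 2920 and 3338 counts per WT library against 5603, 4128 and 3404 per AS library. After scaling the groups overlapped, and the log2 fold change was 0.38 (95% confidence interval -0.06 to 0.82, adjusted p = 0.250). Cxcr5, the Cxcl13 receptor of B cells, had 773, 953 and 1506 counts per WT library against 2956, 2441 and 1589 per AS library. The lowest AS library, replicate 3, met the highest WT library, replicate 3, at 124 and 125 CPM. The log2 fold change of Cxcr5 was 0.94 (SE 0.29, edgeR, adjusted p = 0.0840). Cxcr4, the Cxcl12 receptor found on most leukocytes, had 479, 640 and 799 counts per WT library against 1353, 941 and 1156 per AS library. Its groups did not overlap, and its log2 fold change of 0.67 (SE 0.23) did not pass (edgeR, adjusted p = 0.109). Cxcr3, which marks effector T cells and binds Cxcl9 and Cxcl10, had 52, 155 and 104 counts per WT library against 306, 186 and 213 per AS library. Each AS library was higher than each WT library in CPM, at 15.1 to 21.1 against 4.62 to 13.1 CPM (95% confidence interval of the log2 fold change 0.04 to 1.96, edgeR, adjusted p = 0.173).

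Apart from the monocyte and macrophage list, of which 4 of 7 passed as given above, the leukocyte lists had no call. Of 41 markers on these 6 lists (8 pan-leukocyte, 8 T cell, 7 B cell, 5 NK cell, 7 neutrophil and 6 dendritic cell), 0 passed between genotypes in dimtdT cells by edgeR, 13 had an unadjusted p under 0.05 and 5 passed by DESeq2. The pan-leukocyte sum was nevertheless 7366 to 12149 CPM in WT and 12315 to 12869 CPM in AS, so the ranges did not overlap. With the mean log2 CPM of the 8 pan-leukocyte markers as a covariate, the edgeR adjusted p of the 9 members lay between 0.0803 (Ackr3) and 0.838 (Ccr7). Per 1000 pan-leukocyte marker counts, Ccr2 was 2.35 times higher in AS without overlap of the groups, while Ccr7 (ratio 0.936), Cxcr4 (1.17), Cxcr5 (1.40), Cxcr3 (1.57) and Cx3cr1 (1.54) overlapped between genotypes. Ccr1 (0.696) and Cxcr2 (0.509) overlapped too.

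**Figure D1:**
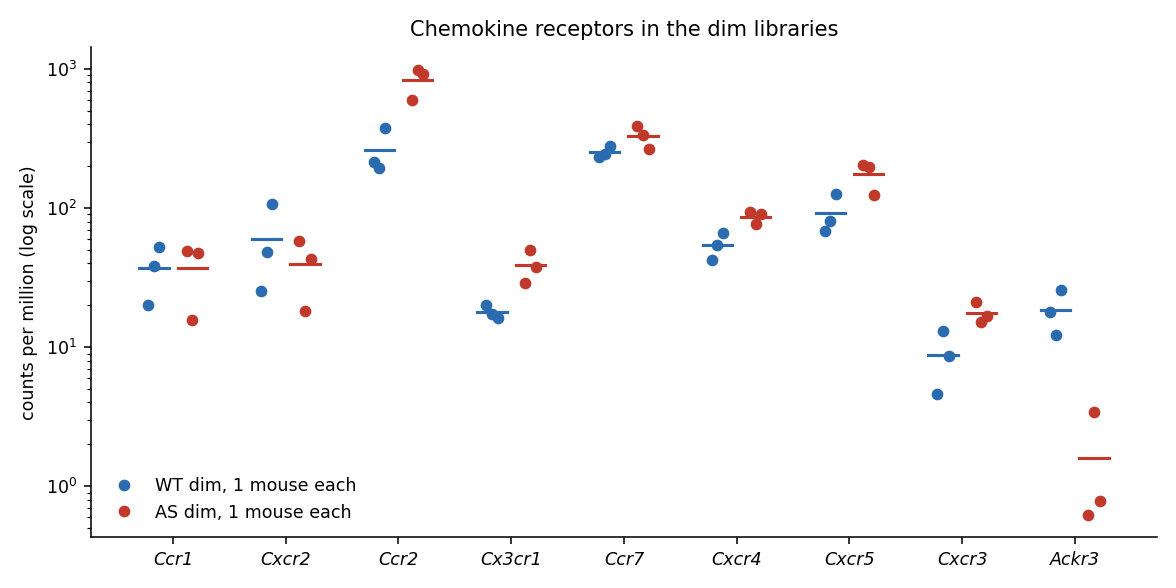
CPM on a log axis for the 9 receptors in the dimtdT libraries; each point is the library of 1 mouse (blue WT, red AS) and the bar is the mean of 3. Ccr2 is higher in each AS library (598 to 989 CPM) than in each WT library (194 to 378 CPM), and Ackr3 is lower in each AS library (0.621 to 3.41 CPM) than in each WT library (12.3 to 25.7 CPM).

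Ackr3, the scavenger of Cxcl12, was the member that fell. It had 201, 146 and 309 counts per WT library against 9, 42 and 10 per AS library of dimtdT cells. The highest AS library, replicate 2, had 3.41 CPM and the lowest WT library, replicate 2, had 12.3 CPM, so the groups did not overlap. The log2 fold change was -3.58 (SE 0.62, 95% confidence interval -5.00 to -2.15, edgeR, adjusted p = 0.0217). Leaving out AS replicate 1 or AS replicate 3 from the edgeR fit lost the call (adjusted p = 0.113 in each case), with log2 fold changes of -4.77 (without AS replicate 2) to -3.19 over the 6 omissions. It was also lost with the pan-leukocyte covariate (-4.21, edgeR, adjusted p = 0.0803) and the proximal tubule covariate (-2.30, adjusted p = 0.902).

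Markers of resident renal cells also differed between these libraries. Of 12 endothelial markers 8 were lower in AS dimtdT cells, and their sum was 734 to 1353 CPM in WT and 224 to 311 CPM in AS. Of 6 podocyte markers 3 were lower, Wt1 and Podxl among them, and 1 was higher, and their sum was 631 to 1219 CPM in WT and 526 to 548 CPM in AS. Of 8 proximal tubule markers 4 were lower (Slc22a6, Slc27a2, Aqp1 and Lrp2), with sums of 935 to 4038 CPM in WT and 9.29 to 298 CPM in AS. Of 6 mesangial and mural markers 5 could be tested and 0 passed by edgeR, 3 had an unadjusted p under 0.05 and 0 passed by DESeq2, with sums over the 6 of 117 to 207 CPM in WT and 57.7 to 103 CPM in AS. Among endothelial, podocyte and proximal tubule markers none was at 0 in any dimtdT library, the lowest count of an endothelial marker being 7 (Erg). Beside the covariate fits above, Ackr3 was set against the endothelial markers of the same library. Per 1000 endothelial marker counts, Ackr3 was at 14.8, 9.11 and 35.1 in WT and at 2.76, 11.5 and 2.51 in AS dimtdT cells. These ranges overlapped because AS replicate 2 exceeded WT replicate 2 (exact permutation test, two-sided, p = 0.2). In brighttdT cells the same ratio was lower, at 0.516 to 1.28 in WT and 1.18 to 1.94 in AS. Against WT dimtdT cells the WT brighttdT ratio was 20.0 times lower, without overlap. Against AS dimtdT cells the AS brighttdT ratio was 2.73 times lower, also without overlap. The exact permutation p was 0.1 each, the smallest that 3 against 3 unpaired libraries allow. That test did not use the pairing of dimtdT and brighttdT libraries by mouse.

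The same genotype comparison in brighttdT cells found no member past the threshold. Here 0 of 5 members passed by edgeR, beside 0.452% of the 14396 genes tested (0.188% higher and 0.264% lower in AS), and Ackr3 and Ccr2 had an unadjusted p under 0.05 (0.00367 and 0.00907). Ackr3 had 216, 119 and 197 counts per WT library against 305, 434 and 425 per AS library. Each AS library was above each WT library, with a log2 fold change of 1.13 (95% confidence interval 0.46 to 1.81, edgeR, adjusted p = 0.0865). By DESeq2 the same comparison of Ackr3 passed (adjusted p = 0.0142), and by edgeR's likelihood ratio test Ccr2 passed (adjusted p = 0.0221). Ccr2 had 24, 7 and 14 counts per WT library against 38, 62 and 45 per AS library, again without overlap (log2 fold change 1.68, SE 0.52, edgeR, adjusted p = 0.117). Cxcr5, at 18, 2 and 3 counts per WT library against 18, 20 and 20 per AS library, was decided by WT replicate 1, since its log2 fold change was 1.32 (edgeR, adjusted p = 0.295) with and 2.89 without that library. Ccr7 (17, 20 and 14 counts in WT, 42, 25 and 20 in AS) and Cxcr4 (54, 101 and 30 in WT, 59, 82 and 60 in AS) had log2 fold changes of 0.77 and 0.11. The 95% confidence interval of Cxcr4 ran from -0.98 to 1.20. The pan-leukocyte marker sum was 77.1 to 124 CPM in WT and 148 to 182 CPM in AS brighttdT cells, and 0 of the 8 markers passed by edgeR, 3 having an unadjusted p under 0.05 and 1 passing by DESeq2.

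**Figure D2:**
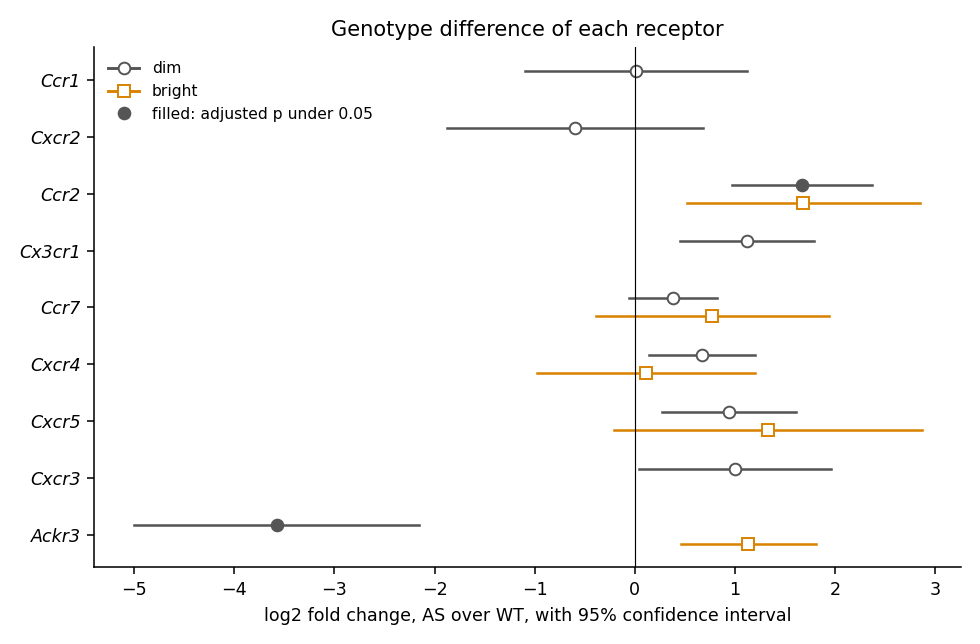
Log2 fold change of AS over WT (x axis) with its 95% confidence interval for each receptor, in dimtdT cells (grey circles) and, for the 5 receptors listed there, in brighttdT cells (orange squares); filled symbols passed an adjusted p of 0.05. The dimtdT values of Ccr2 (1.67) and Ackr3 (-3.58) are filled, and Ackr3 lies on opposite sides of 0 in dimtdT and brighttdT cells.

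The second question was how the subpopulations differed within each genotype. In WT mice, 4 of the 5 members listed in both tables were lower in brighttdT than in dimtdT cells, beside 25.3% of all 14247 genes tested that passed (11.5% lower in brighttdT cells). Ccr2 (log2 fold change -7.99), Ccr7 (-7.74) and Cxcr5 (-7.42) had the larger falls, and Cxcr4 fell by 3.67 on the log2 scale (SE 0.48, edgeR, adjusted p = 0.000576). The median over the 8 pan-leukocyte markers was -7.35, with all 8 lower, and Cxcr4 lay closer to 0 than that median. The Cxcr5 value rested on WT bright replicate 1, without which it was -8.96, below Ccr2 (-8.47) and Ccr7 (-7.72) in the same fit. Ackr3 stood at 17.9, 12.3 and 25.7 CPM in dimtdT and 14.6, 8.44 and 13.3 CPM in brighttdT cells of the same 3 WT mice. Each WT mouse had less Ackr3 in its brighttdT library, between 1.22 and 1.94 times less, but the difference did not pass (log2 fold change -0.62, 95% confidence interval -1.58 to 0.34, edgeR, adjusted p = 0.321).

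In AS mice all 5 passed, beside 55.1% of the 14052 genes tested (28.6% higher and 26.5% lower in brighttdT cells), a background high enough that the count itself is no particular result. Ccr2 (-7.99), Ccr7 (-7.37), Cxcr5 (-7.05) and Cxcr4 (-4.25) were lower in brighttdT cells on the log2 scale. Ackr3 was the exception, with 0.621, 3.41 and 0.781 CPM in dimtdT and 21.9, 28.1 and 29.9 CPM in brighttdT cells. Its brighttdT level was 35.2, 8.26 and 38.3 times the dimtdT level in the 3 AS mice (log2 fold change 4.08, SE 0.47, edgeR, adjusted p = 4.72e-05). With 1 library left out the log2 fold change was 3.67 to 5.20 and the call held, the highest value being that without AS dim replicate 2. The direction turned with the denominator, since per endothelial marker count Ackr3 was 2.73 times lower in AS brighttdT than in AS dimtdT cells.

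Whether the genotype difference itself depended on the subpopulation was tested with an interaction term. Of the 5 members 1 passed, beside 3.77% of all 15084 genes tested (2.96% in the positive direction). The genotype difference of Ackr3 was negative in dimtdT cells (-3.58) and positive in brighttdT cells (1.13, not passed), and the signed difference, brighttdT minus dimtdT, was 4.76 on the log2 scale in the joint fit (SE 0.66, 95% confidence interval 3.32 to 6.19, edgeR, adjusted p = 0.00418). It passed in each of the 20 alternative fits and single-library omissions (log2 values of 4.34 to 5.76). For Ccr2 (0.06, 95% confidence interval -1.02 to 1.14), Ccr7 (0.43), Cxcr4 (-0.53) and Cxcr5 (0.43) the term did not pass. The median of this term was 0.13 over all genes and -0.03 when libraries were scaled by their size alone, a shift far smaller than the Ackr3 value. In the same test 9 of 12 endothelial and 5 of 6 podocyte markers passed in the positive direction, with medians of 2.59 and 2.44, and the part of these cells in the Ackr3 term was not tested.

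**Figure D3:**
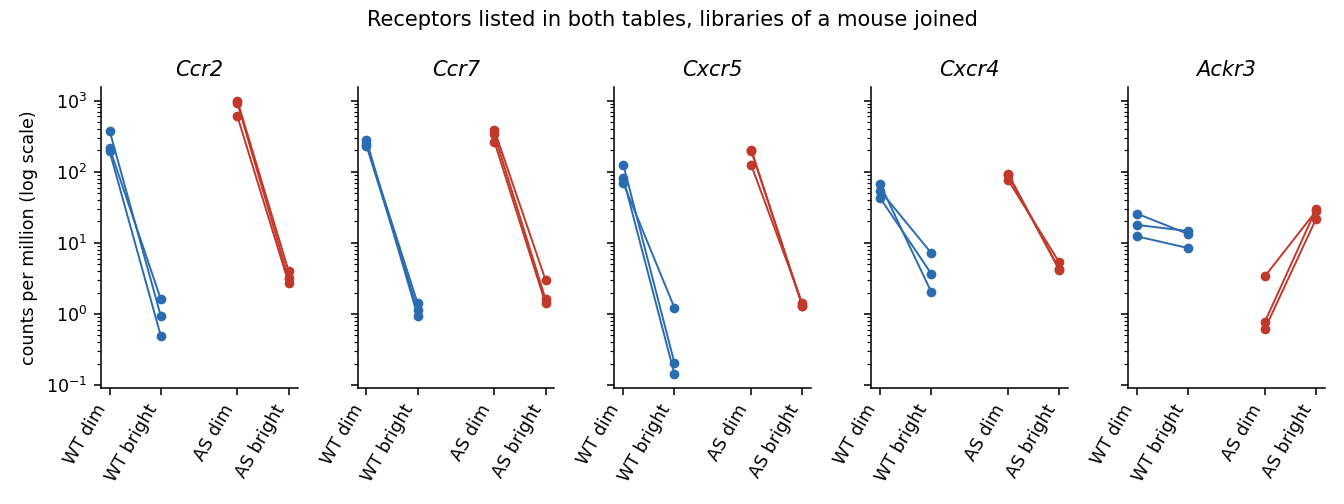
CPM on a log axis for the 5 receptors listed in both tables; a line joins the dimtdT and brighttdT library of 1 mouse (blue WT, red AS), and CPM was scaled within each table. Ccr2, Ccr7, Cxcr5 and Cxcr4 drop from dimtdT to brighttdT in all 6 mice, while Ackr3 rises in the 3 AS mice.

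To set the members against the leukocyte RNA of the same library, their counts were divided by those of the 8 pan-leukocyte markers, which needs no scaling between libraries. Cxcr4 stood at 4.94 to 7.34 per 1000 marker counts in dimtdT and at 16.3 to 92.8 in brighttdT libraries. The ratio was 6.68 times higher in WT brighttdT and 4.06 times higher in AS brighttdT than in the matching dimtdT cells, without overlap. The exact permutation p was 0.1 in each genotype, the smallest that 3 against 3 unpaired libraries allow. It treated the libraries as unpaired, although dimtdT and brighttdT libraries come from the same mice. A paired test of this ratio was not run. Ccr7 moved the other way, 2.29 times lower in WT and 2.23 times lower in AS brighttdT cells, as did Ccr2 (2.89 and 3.26 times lower) and Cxcr5 (2.85 and 1.67 times lower, with overlap in WT). Coro1a alone made up 53.6% to 64.5% of the marker counts in dimtdT and 20.8% to 46.4% in brighttdT libraries, so the ratio was also taken to Ptprc, the common leukocyte antigen, a choice made after seeing the data. Against Ptprc, Ccr2 (1.07 times), Ccr7 (1.35 times) and Cxcr5 (1.08 times) stood slightly higher in WT brighttdT than in WT dimtdT cells, with overlapping groups. In AS mice Ccr2 (1.31 times) and Ccr7 (1.92 times) were higher in brighttdT cells per Ptprc count with overlap, and Cxcr5 was 2.56 times higher without overlap, so the direction of these 3 ratios depended on the markers used. Cxcr4 kept its direction and was 20.6 times higher in WT and 17.4 times higher in AS brighttdT cells per Ptprc count, without overlap.

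**Figure D4:**
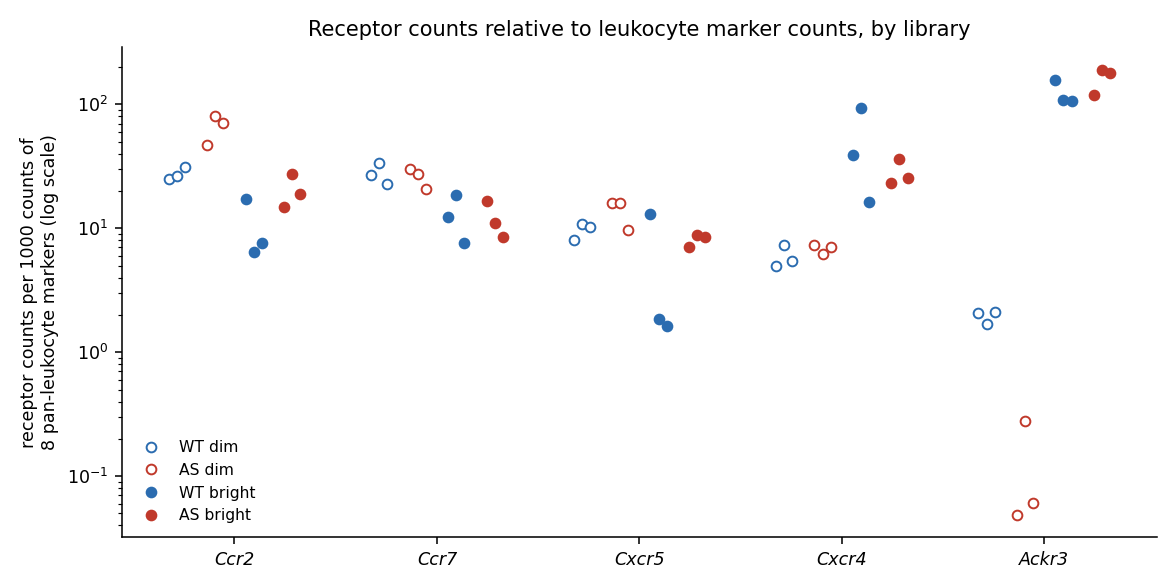
Receptor counts per 1000 counts of the 8 pan-leukocyte markers in the same library (log axis) for the 5 receptors listed in both tables; each point is 1 library, open for dimtdT, filled for brighttdT, blue for WT and red for AS. The brighttdT points of Cxcr4 (16.3 to 92.8) and Ackr3 (107 to 191) lie above their dimtdT points, and those of Ccr7 below.

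The members were also compared with each other and with all other genes by the root mean square (RMS) difference of their centred log2 CPM, a description over shared libraries. Over the 6 dimtdT libraries the closest members were Ccr7 and Cxcr4 (RMS 0.27), Cxcr4 and Cxcr5 (0.32), and Ccr1 and Cxcr2 (0.35). Ackr3 was farthest from all others, at 2.05 (Cxcr2) to 2.76 (Ccr2). Over 12 libraries Cxcr5 and Ccr2 (0.61), Ccr7 and Cxcr5 (0.71) and Ccr7 and Ccr2 (0.85) were close, and Cxcr4 was 1.78 to 2.14 away from each of these.

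The genes with the most similar pattern over the 12 libraries were Ms4a6c for Ccr2 (RMS 0.35), Cd86, a costimulatory molecule of antigen presenting cells, for Ccr7 (0.31), Def6 for Cxcr4 (0.33), and Rab7b for Cxcr5 (0.40). For Ackr3 the nearest genes were Enpp5 (0.62), Tfpi2 (0.62) and Macrod2 (0.66), more distant than the nearest gene of any other member. Among the members listed in dimtdT cells only, over 6 libraries, the nearest genes were Clec4d, a C-type lectin of myeloid cells, for Cxcr2 (0.20), Rnd3 for Ccr1 (0.17), Rab7b for Cxcr3 (0.14) and Aifm2 for Cx3cr1 (0.13).

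Of 17 other chemokine receptors 12 were listed in dimtdT cells and 9 could be tested. Between genotypes none fell in AS. Ccr6, the Ccl20 receptor, rose and had 88, 47 and 27 counts per WT library against 544, 219 and 173 per AS library (log2 fold change 2.31, edgeR, adjusted p = 0.0456), and its call was lost whichever of the 6 libraries was left out (0.0515 to 0.173) and with the pan-leukocyte (3.42, adjusted p = 0.214) or proximal tubule covariate (2.42, 0.871). In brighttdT cells 0 of 5 others passed by edgeR, 1 had an unadjusted p under 0.05 and 1 passed by DESeq2.

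Of the 18 ligands of the members listed in dimtdT cells, Ccl7 rose and Cx3cl1 fell in AS. These were 11.1% of the 18, beside 8.63% of all genes tested. By edgeR 7 of the 18 had an unadjusted p under 0.05, and 5 passed by DESeq2. Ccl7, a ligand of Ccr2, had 0, 2 and 1 counts per WT library against 23, 32 and 20 per AS library. Its log2 fold change of 4.32 (edgeR, adjusted p = 0.0230) depends on the prior count at such levels and passed in 1 of the 6 omissions, that of WT replicate 3 (adjusted p of 0.0542 to 0.113 in the other 5). Cx3cl1, fractalkine, the ligand of Cx3cr1, had 402, 408 and 214 counts per WT library against 86, 84 and 92 per AS library of dimtdT cells (log2 fold change -2.14, SE 0.38, edgeR, adjusted p = 0.0217, lost without AS replicate 1, 0.113, 2, 0.0549, or 3, 0.113). With the pan-leukocyte covariate the Cx3cl1 value was -1.13 (edgeR, adjusted p = 0.248) and with the proximal tubule covariate -1.85 (0.871), and the Ccl7 call was lost with both as well (0.257 and 0.760). Cx3cl1 was far higher in brighttdT cells, with 4465 to 13130 counts per library. In brighttdT cells 0 of 11 ligands passed between genotypes by edgeR, 6 had an unadjusted p under 0.05 and 1 passed by DESeq2.

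Among 28 signalling genes below the receptors, Gnai1, an inhibitory G protein alpha subunit, fell in AS dimtdT cells from 627, 375 and 364 counts to 52, 81 and 57 (log2 fold change -3.02, SE 0.40, edgeR, adjusted p = 0.0172, lost without AS replicate 1, 0.113, or AS replicate 3, 0.107). The Gnai1 call was also lost with the pan-leukocyte covariate (-2.45, edgeR, adjusted p = 0.107) and the proximal tubule covariate (-1.74, 0.850). The other 27 did not pass by edgeR, so 3.57% of the 28 were called, beside 8.63% of all genes tested. In the same comparison 12 of the 28 had an unadjusted p under 0.05 and 7 passed by DESeq2. In brighttdT cells 0 of 25 passed by edgeR, 8 had an unadjusted p under 0.05 and 4 passed by DESeq2. Between subpopulations 16 of 27 signalling genes were lower and 4 higher in WT brighttdT cells, beside 11.5% lower and 13.8% higher of all genes tested. In AS brighttdT cells 18 were lower and 7 higher, beside 26.5% lower and 28.6% higher of all genes tested. Pik3r5 (-9.07 in WT), Dock2 (-8.16 in WT, -8.94 in AS) and Rac2 (-9.03 in AS) on the log2 scale were among those with the largest differences.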

How the data were processed

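RNA of the dimtdT and brighttdT cells (labelled GEC) sorted from 3 WT and 3 AS mice was sequenced, 1 library per subpopulation and mouse. Per the labels and the study's methods, the authors used FastQC 0.11.5, cutadapt and Trimmomatic, aligned with STAR 2.6.0c to GRCm38.p5 with Gencode M16, and deposited raw counts per gene; the strand setting of the counting is not given in the sources used here. The deposited RPKM values and gene lengths of the authors were read but not used for levels, because the length sums the exons of all transcripts and is up to 2.71 times (Cxcr5) the merged exon length. Levels between genes are CPM per kb of merged exons (Gencode M21). Gene rows alone entered the library sizes; 92 spike-in rows were dropped (at most 0.282% of counts in a library).

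The counts were tested with edgeR 4.0.16 (quasi-likelihood, TMM, filterByExpr, minimum count 10) in R 4.3.3 over all genes, and p-values were adjusted after Benjamini and Hochberg (threshold 0.05). Each comparison used the libraries of its own groups, and the tests between subpopulations and of the interaction used the 15768 genes in both tables. Confidence intervals are from the same fit. DESeq2 1.42.0, other scalings, filters and omissions were alternatives. The pipeline was tested on simulated data. The members, gene lists and tests were chosen with earlier results of these data known. Every member was named; of the other lists, at most 3 genes that passed with the largest change were eligible, plus, for likeness, the nearest genes by RMS; some genes of these lists are not reported here. By their labels, dim and bright libraries of a number come from the same mouse within a genotype, while across genotypes samples share only a number. The mean correlation of deviations within a mouse was 0.197 in WT and 0.213 in AS. In AS these correlations (0.0796 to 0.385) overlapped those between different mice (-0.286 to 0.189). In WT they did not (0.102 to 0.274 against -0.210 to 0.0130). With 3 mice per group, p-values measure the spread between these mice. The least listed gene had 8 counts in total; how the authors filtered the tables is not given in the sources used here, so absence from a table sets no upper limit.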

Additional observations from a re-analysis of the deposited data

Results flagged for a closer look

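The genotype difference depended on the subpopulation, by the test of the interaction term (edgeR, Benjamini-Hochberg), for 569 of all 15084 genes tested (3.77%). Among the chemokine receptors, ligands and signalling genes listed here these were Ackr3 and 4 genes outside the 9 members, among them another receptor, Ccr9; values are the AS over WT difference in brighttdT minus that in dimtdT cells, on the log2 scale. Ackr3 had 4.76 (adjusted p = 0.00418). Cx3cl1, fractalkine, had 2.98 (adjusted p = 0.00432), and Gnai1 had 3.09 (adjusted p = 0.00357). Ccr9, the receptor for Ccl25, had -4.04 (adjusted p = 0.0104), with 59, 60 and 156 counts per WT library against 4, 17 and 5 per AS library of brighttdT cells. Ptk2b, a tyrosine kinase below the receptors, had -2.66 (adjusted p = 0.0308), a call lost when WT dim replicate 1 (0.0531), AS dim replicate 1 (0.0675) or 2 (0.0535), WT bright replicate 1 (0.0841), or AS bright replicate 1 (0.109) or 3 (0.103) was left out; the call of the other 4 held in all 12 omissions.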

How the results depend on the processing

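The genes that passed between genotypes depended on the fit. In dimtdT cells 1263 passed, against 2213 by DESeq2, 494 with a replicate block and 582 by edgeR's version 3 fit (added after seeing the data). With all 12 libraries in one fit 2106 passed, with the pan-leukocyte covariate 81 and with the proximal tubule covariate 1. With 1 library left out 0 to 1825 passed. In brighttdT cells 65 passed, against 1117 by DESeq2, 897 by the likelihood ratio test, 39 without a filter, 16 with a replicate block, 0 by the version 3 fit and with either covariate, 139 with all 12 libraries, and 0 to 281 with 1 library left out. For the interaction 569 passed, against 1186 by DESeq2, 1092 by the likelihood ratio test, 877 with the mouse as replicate block, and 252 to 857 with 1 library left out. With 1 library left out, 2534 to 3435 passed between subpopulations in WT and 6651 to 7490 in AS, and no alternative moved these counts by over 1.5 times.

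Across genotypes replicates share only a number. The block, which left Ccr2 past the threshold, took the Ackr3 (adjusted p = 0.0534) and Cx3cl1 (0.0521) calls in dimtdT cells; paired by mouse it changed no call of a member between subpopulations or in the interaction. The pan-leukocyte covariate (Ccr2 0.96, edgeR, adjusted p = 0.281, and Ackr3 -4.21, adjusted p = 0.0803) took the calls of both Ccr2 and Ackr3. The proximal tubule covariate took both as well (Ccr2 1.81, 0.798, and Ackr3 -2.30, 0.902). The summed levels of these markers differ between genotypes, and the cause was not tested. Cx3cr1 passed with library sizes alone (adjusted p = 0.0442) and by DESeq2 (0.00684), and Cxcr5 by DESeq2 (0.0419) and without WT dim replicate 3 (0.0334).

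The values that reversed had not passed in any of the fits named here. For Ccr1 between genotypes in dimtdT cells the log2 value was -0.0067 with RLE scaling, -0.0084 by DESeq2, -0.053 with a replicate block, -0.82 and -2.20 with the covariates and -0.28 to 0.36 with 1 library left out. Cxcr2 lay between -1.03 and 0.11, Cxcr4 in brighttdT cells between -0.26 and 0.70, and the interaction between -0.31 and 0.53 for Ccr2 and -0.87 and 0.090 for Cxcr4 with 1 library left out. Cxcr5 in brighttdT cells was -0.12 with the pan-leukocyte covariate, and the Ccr2 interaction was -0.10 with library sizes alone and with average log2 CPM above 1. Ccr2, Ccr7 and Cxcr5 had 2 to 62 counts per brighttdT library.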
